A study of Mus musculus with 9 samples.

Results

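The matrix metalloproteinases (MMPs), the ADAMTS proteases and the tissue inhibitors of metalloproteinases (TIMPs) were described in 9 cultures of mouse synovial fibroblasts, which build and remodel the lining of the joint. Members were the rows whose gene identifier maps to an Mmp, Adamts or Timp1 to Timp4 symbol. They numbered 46 of 47729 rows, 23 Mmp, 19 Adamts and 4 Timp genes. Of these, 36 had a mean of at least 3 on the rlog scale and counted as measured, against 15623 genes in all. The rlog value is the regularised logarithm of the read count, on a log2 scale, so a difference of 1 is a doubling.

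The cells came from paws of wild-type BALB/c mice, digested with collagenase, and were cultured for 5 passages. Uninjected paws gave the 3 naive libraries. For the 3 non-primed libraries, monosodium urate (MSU) crystals, the crystals of gout, were put into the right paw on day 9. For the 3 primed libraries, the left paw received MSU on day 0 and once more on day 9. RNA extraction is labelled day 18. Paw side cannot be told apart from priming, and the design text allows that a primed and a non-primed paw belonged to 1 mouse. No label ties a library to an animal, so p-values measure only the spread between these samples.

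MMPs are zinc-dependent endopeptidases that are made as inactive proenzymes and are activated by removal of a propeptide. Between them they cleave collagens, proteoglycans and other matrix proteins, and synovial fibroblasts are a known source of them in inflamed joints. ADAMTS proteases are secreted relatives that bind matrix, and include the aggrecanases of cartilage and the enzymes that trim procollagens. The TIMPs bind the active site of these enzymes and block it.

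None of the 36 measured genes passed the threshold in any comparison (limma, adjusted p below 0.05). The background was 22 of 15623 genes (0.141%) for non-primed against naive, with 0.115% higher and 0.0256% lower. It was 16 genes (0.102%) for primed against naive, with 0.096% higher and 0.0064% lower (51 genes with the replicate number as a block, none a member), and 0 genes (0%) for primed against non-primed. The moderated F test over the 3 groups called 11 genes (0.0704%), none of them a member. With array weights, which give variable libraries less weight, 3 members passed for non-primed (Mmp14, Mmp28 and Adamts5; background 3.97%), 4 for primed against naive (the same with Mmp11; background 4.69%) and 3 between primed and non-primed cultures (Mmp11, Mmp23 and Timp4; background 13.5%). At an unadjusted p below 0.05, 7 members differed between non-primed and naive cultures, 5 higher and 2 lower, where the background was 15.4% (8.58% higher and 6.84% lower). The same count was 9 members between primed and naive cultures, 6 higher and 3 lower, with a background of 16.9% (9.43% and 7.43%). Mmp8, among those higher in both, reached the filter only through the injected groups. Timp4 alone, higher in primed, met it between primed and non-primed cultures, with a background of 1.26% (0.57% and 0.691%). The fit shares an estimate of spread among the 3 groups, so the more variable naive libraries also enter the p-values of that comparison. The median difference from naive was 0.22 for the members in non-primed and 0.21 in primed cultures, beside 0.01 and -0.00143 over all genes tested. Without non-primed 2 the former was 0.14, and under quantile normalization the latter was 0.13. Both comparisons with naive cultures share the naive libraries.

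The libraries differed from each other more within the naive group than within the injected groups. Over the members, the median SD between replicates was 0.46 for naive, 0.14 for non-primed and 0.27 for primed libraries, beside 0.22, 0.10 and 0.14 over all genes tested. The naive libraries spanned more than 1 log2 unit in 15 of 36 members, the primed in 7 and the non-primed in 3. No such count over all genes is given beside these. All 11 fibroblast markers were measured, with a mean level of 13.86 to 14.63 in the 9 libraries. All 14 macrophage markers were measured too, and their mean was 7.43 to 9.90 in naive, 9.89 to 10.47 in non-primed and 9.68 to 10.91 in primed libraries. Their summed level, as a log2, was 13.12 to 15.80, 15.84 to 16.34 and 15.62 to 16.85. Naive 2 was the naive library with the high value. All 14 were higher in injected than in naive cultures on average, with medians of 1.85 and 2.01 and none past the threshold. The 8 neutrophil and mast cell markers and the 6 lymphocyte markers all lay below the filter, with S100a9, Cpa3 and Cd3e listed at 0. Of 6 markers each, 4 were measured for endothelial cells (median difference from naive 0.21 in non-primed and 0.19 in primed), 3 for chondrocytes (-0.37 and -0.35), 4 for osteoblasts (-0.40 and -0.35), 6 for adipocytes (-1.16 and -0.80) and 5 for Schwann cells (1.09 and 0.68). Of 7 skeletal muscle markers 4 were measured (1.19 and 1.19). No marker of these lists passed the threshold. In bulk samples, more cells of a type and more RNA per cell cannot be told apart.

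Levels of different genes were compared per length, as rlog less the log2 of the summed exon length in kilobases. Mmp3, or stromelysin 1, which cleaves proteoglycans and activates other proMMPs, had the highest level at 16.16. Timp1, a broad MMP inhibitor, followed at 14.59, and Mmp2, a gelatinase of resting fibroblasts, at 13.61. Next were Timp2 at 12.67, the collagenase Mmp13 at 12.37, the proteoglycan-cleaving Adamts1 at 12.08, Mmp23 at 11.39, the membrane-type collagenase Mmp14 at 10.87, Timp3 at 10.75 and Mmp19 at 10.71. Of the 10 highest genes, 3 were thus inhibitors. The level of Mmp3 lay above that of Timp1 in all 9 libraries, by 0.87 in primed 2 up to 3.47 in naive 2. The exons of Mmp19 share 22.3% of their bases with Tmem198b on the opposite strand (mean rlog 9.61), so its level is uncertain to that extent if reads were counted without strand.

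**Figure D1:**
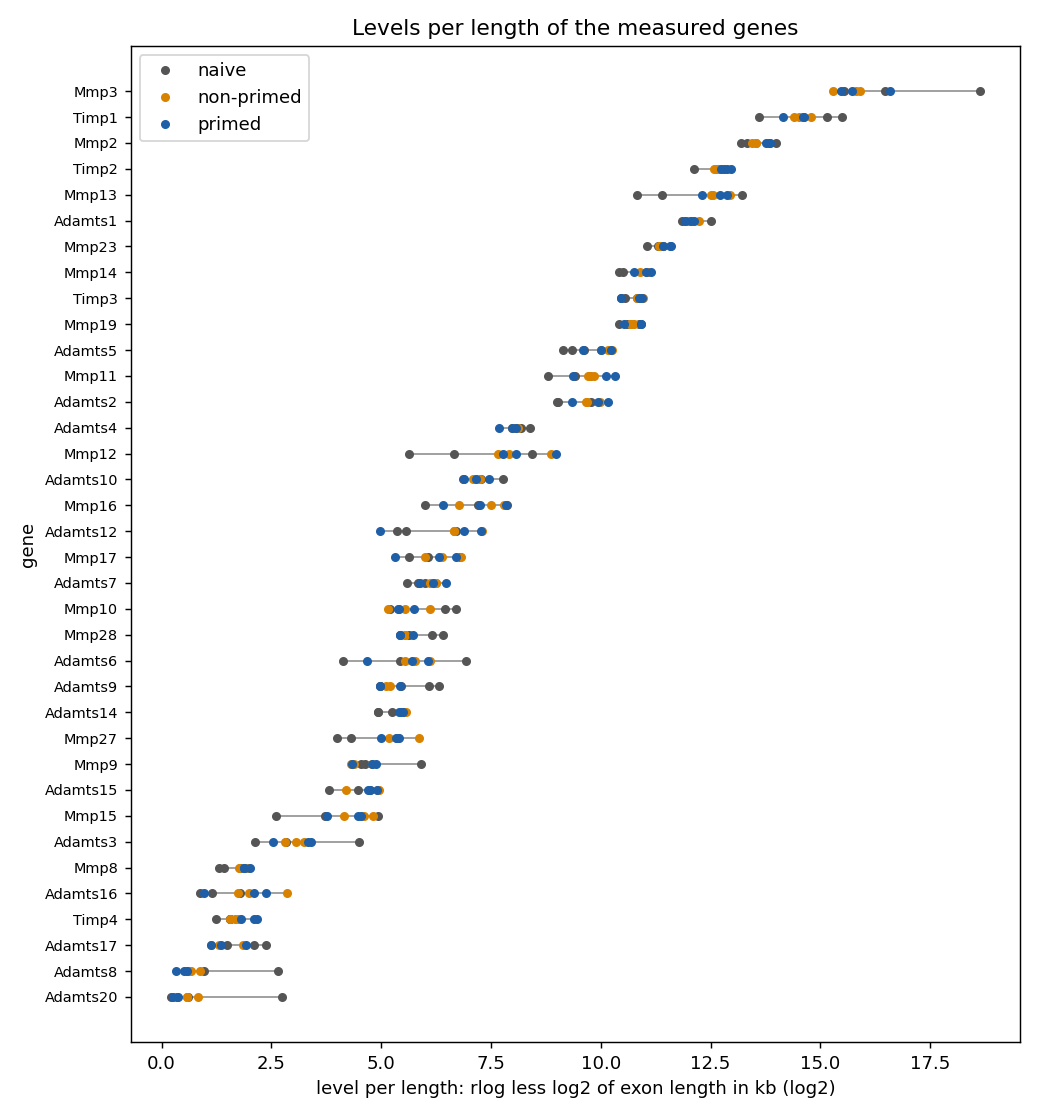
Level per length (x axis, rlog less log2 of exon length in kilobases) of the 36 measured genes (y axis, in order of the mean), with a point for each of 9 libraries coloured by group and a grey line over their range. Mmp3 leads at a mean of 16.16 and its naive libraries are the farthest apart.

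Close to the bound of 3, Mmp8 (mean rlog 3.05) and Adamts8 (3.07) counted as measured and Mmp1b (2.00) did not. The other 9 unmeasured members were Mmp1a, Mmp7, Mmp20, Mmp21, Mmp24, Mmp25, Adamts13, Adamts18 and Adamts19. Mmp20, the enamel protease, was listed at 0 in all 9 libraries.

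A run of 10 Mmp genes lies on chromosome 9 within 427 kb (GRCm38, 7272514 to 7699585, GENCODE M21). Of these, Mmp13, Mmp12, Mmp3, Mmp10, Mmp8 and Mmp27 were measured. Among the naive libraries, naive 2 had the highest value in all 6, whereas it was highest in 7 of the 30 other members and in 34.8% of all genes tested. The order of the 6 genes against the injected cultures was not shared. On average Mmp3 and Mmp10 were lower in the injected groups than in naive cultures and Mmp13, Mmp12, Mmp8 and Mmp27 were higher, each short of the threshold.

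**Figure D2:**
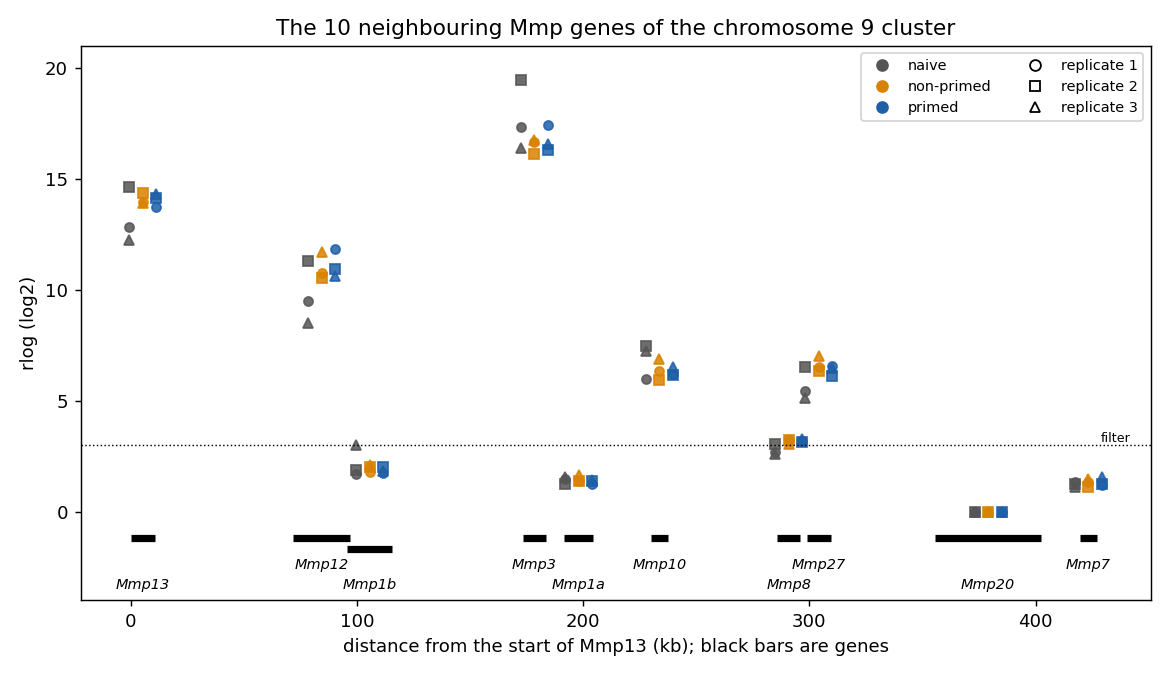
Position of the 10 neighbouring Mmp genes (x axis, kilobases from the start of Mmp13, with black bars for genes and the lower bar for Mmp1b on the opposite strand) and their rlog values (y axis, log2) in 9 libraries, coloured by group, with the marker shape for the replicate and groups set side by side at each gene. The dotted line is the filter at 3, and the grey squares of naive 2 are the highest naive values at all 6 measured genes.

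Promoter sequences of this cluster are shown because the same short motif occurs in most of them. The TPA response element (TRE), to which Fos and Jun dimers (AP-1) bind, was searched as TGACTCA on both strands in RefSeq promoter windows of 250 bases before to 50 after the start (GRCm38.p6). The table held 35 windows of 32 members and 32851 windows in all. A match was found in 7 members, and in 5.2% of all windows. All 7 lie in the chromosome 9 cluster (Mmp13, Mmp12, Mmp3, Mmp10, Mmp1a, Mmp1b and Mmp7), and 0 of the 22 other members in the table had one. TATAAA, searched on the gene's strand, was in 10 of 35 windows (8.32% of all), and AGGAAG, a PEA3 motif searched on both strands, in 16 of 35 (35.4% of all). Matches of different motifs did not overlap. The 100 bases before the start are given 5′ to 3′ for the 4 measured genes with a match, all on the plus strand, with the TRE letters in capitals. For Mmp12 the table holds a start at each of 2 places, and the later one, inside the annotated gene (7344381 to 7369499), is shown. The window of the earlier one, next to the start of the annotated gene, held no TRE. A match describes these letters and not a bound site.
Mmp13, chr9:7272414-7272513: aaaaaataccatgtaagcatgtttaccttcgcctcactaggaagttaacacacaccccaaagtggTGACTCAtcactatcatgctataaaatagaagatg
Mmp12, chr9:7347274-7347373: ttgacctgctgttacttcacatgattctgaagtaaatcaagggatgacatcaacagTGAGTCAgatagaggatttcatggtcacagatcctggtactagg
Mmp3, chr9:7445722-7445821: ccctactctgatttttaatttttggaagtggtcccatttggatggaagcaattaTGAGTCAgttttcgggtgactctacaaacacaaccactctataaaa
Mmp10, chr9:7502242-7502341: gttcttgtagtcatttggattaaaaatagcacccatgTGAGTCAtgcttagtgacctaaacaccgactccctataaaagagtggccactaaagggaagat

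Counted from the start site, the first base of the motif was at position -35 in Mmp13, -44 in Mmp12, -46 in Mmp3 and -63 in Mmp10. No TRE match was found in the windows of Mmp8, Mmp27 and Mmp20, which says only that these letters are not there.

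**Figure D3:**
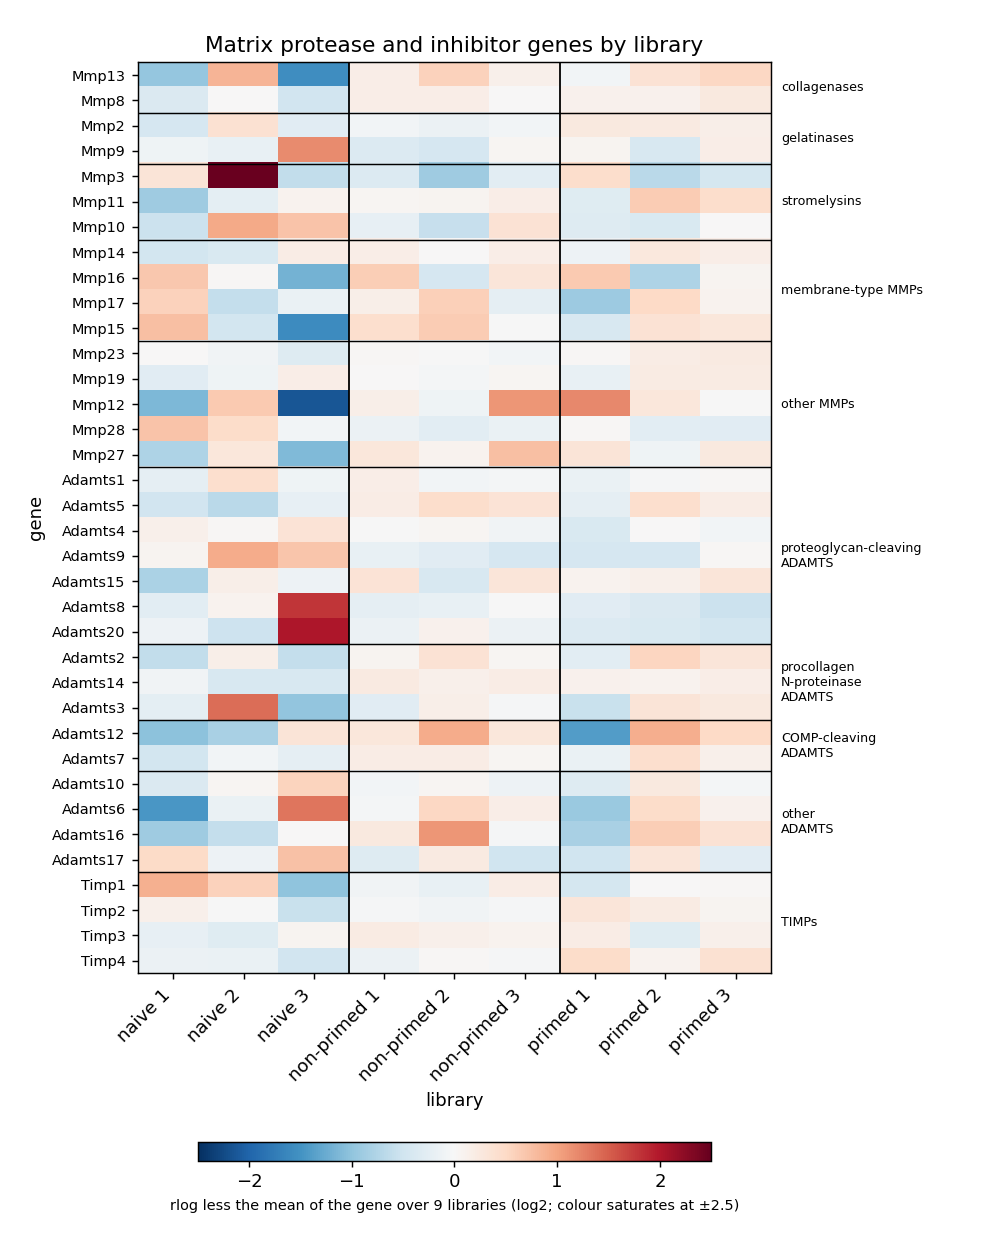
Heatmap of the 36 measured genes (y axis, grouped by role) in 9 libraries (x axis), coloured by rlog less the mean of the gene over the libraries. The strongest colours fall in the naive columns, such as Mmp3 in naive 2 and Mmp12 in naive 3.

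Mmp3 was the member with the widest naive range, 3.09. Its rlog was 17.32, 19.48 and 16.39 in naive 1, 2 and 3, then 16.66, 16.13 and 16.75 in non-primed and 17.44, 16.33 and 16.58 in primed 1, 2 and 3. Naive 2 stood alone and the other 8 libraries overlapped. The difference from naive was -1.22 in non-primed (SE 0.70, limma adjusted p = 0.453) and -0.95 in primed cultures (SE 0.70, adjusted p = 0.517). Without naive 2 these were -0.34 and -0.07 (SE 0.42), and without naive 3 they were -1.89 and -1.62 (SE 0.61). With the mean of the macrophage markers as a covariate they were -2.67 (SE 0.73, adjusted p = 0.232) and -2.55 (SE 0.77, adjusted p = 0.320). That mean nearly follows the groups, with only naive 2 of the naive libraries in the injected range, so values from this fit lean on naive 2. Of the other stromelysins, Mmp10 was at 5.995 in naive 1 but 7.48 and 7.24 in naive 2 and 3, and between 5.94 and 6.90 after injection. Mmp11, which acts on few matrix proteins, differed from naive by 0.44 in non-primed and 0.61 in primed cultures (adjusted p = 0.495 and 0.310, limma).

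Mmp13, the main interstitial collagenase of mouse joints, turned on the same library. It was at 12.81, 14.63 and 12.24 in the naive libraries, at 13.96, 14.36 and 13.92 in non-primed and at 13.72, 14.14 and 14.30 in primed. All 6 injected libraries lay above naive 1 and naive 3 and below naive 2. With all libraries the difference was 0.85 in non-primed (SE 0.52, limma adjusted p = 0.480) and 0.83 in primed cultures (SE 0.52, adjusted p = 0.441). Without naive 2 it was 1.56 (SE 0.24, adjusted p = 0.0194) and 1.53 (SE 0.24, adjusted p = 0.0194), past the threshold in both, in fits where 2.27% and 2.28% of all genes passed. Without naive 3 it was 0.36 and 0.33 (SE 0.46, adjusted p = 0.672 and 0.687), so the size and the call both turned on which naive library was left out. The neutrophil collagenase Mmp8 was at 2.69, 3.06 and 2.58 in naive, 3.22, 3.22 and 3.05 in non-primed and 3.16, 3.16 and 3.29 in primed libraries, near the bound where rlog understates differences.

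Mmp12, the elastase best known from macrophages, had rlog values of 9.50, 11.29 and 8.50 in naive, 10.77, 10.52 and 11.73 in non-primed and 11.83, 10.92 and 10.62 in primed libraries. It was highest in primed 1, and naive 2 lay within the injected range. The difference from naive was 1.24 in non-primed (SE 0.66, limma adjusted p = 0.413) and 1.36 in primed cultures (SE 0.66, adjusted p = 0.332). Without naive 2 these were 2.01 and 2.12 (SE 0.48, adjusted p = 0.0864 and 0.0776), and without naive 3 they were 0.61 and 0.73 (SE 0.58). With the mean of the macrophage markers as a covariate the differences were -0.14 (SE 0.69) and -0.16 (SE 0.72). Here too the fit leans on naive 2, at 9.90 for that mean beside 7.77 and 7.43 in naive 1 and naive 3. Mmp13 also turned under that covariate, to -0.45 (SE 0.40) and -0.61 (SE 0.42). The macrophage markers were lowest in naive 1 and naive 3, as Mmp12 and Mmp13 were, and their part in the result was not tested. Mmp27, named after its values were seen, was at 5.46, 6.51 and 5.13 in naive and between 6.14 and 6.997 after injection. Its difference of 0.91 in non-primed cultures (SE 0.35, adjusted p = 0.261) was 1.32 without naive 2 (SE 0.24, adjusted p = 0.0376), 0.63 without naive 3 (SE 0.33, adjusted p = 0.293) and 0.32 with the macrophage covariate (SE 0.41, adjusted p = 0.753).

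The gelatinases cleave denatured and basement membrane collagens. Mmp2 was at 14.94, 15.74 and 15.08 in naive, 15.29, 15.20 and 15.28 in non-primed and 15.60, 15.58 and 15.51 in primed libraries. The primed libraries all lay above the non-primed, by 0.30 (SE 0.20, limma adjusted p = 0.9999), and within the naive range. Mmp9 was highest in naive 3, at 7.74, and lay at 6.13 to 6.72 in the other 8. The osteoclast list, whose cells are a known source of Mmp9, had 2 of 6 markers measured, with Ocstamp, Dcstamp, Calcr and Oscar below the filter. The 2 were Acp5 and Atp6v0d2, with mean rlog values of 7.66 and 8.71. Their median difference from naive was 0.38 in non-primed and 0.64 in primed cultures, with neither gene past the threshold.

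The membrane-type MMPs are anchored at the cell surface. Mmp14, which activates proMMP2, was at 12.99, 13.07 and 13.63 in naive and between 13.32 and 13.72 in injected libraries, a difference of 0.34 in non-primed and 0.32 in primed cultures (adjusted p = 0.405 and 0.385, limma). Mmp15 spanned 5.04 to 7.36 and Mmp16 9.11 to 10.97 within the naive group, and both were lowest in naive 3. Mmp17 was lowest in primed 1, at 8.04. None of the 4 membrane-type genes differed from naive by more than 0.78, the value of Mmp15 in non-primed cultures (SE 0.51).

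Of the remaining MMPs, Mmp28, or epilysin, was lower in injected cultures on average without passing the threshold. It was at 8.36, 8.12 and 7.58 in naive, 7.50, 7.39 and 7.50 in non-primed and 7.68, 7.39 and 7.37 in primed libraries. The non-primed group did not overlap with naive and the primed group did, through primed 1. The difference was -0.56 in non-primed (SE 0.20, limma adjusted p = 0.236) and -0.54 in primed cultures (SE 0.20, adjusted p = 0.237). Without naive 3, the lowest naive library, it was -0.78 in non-primed cultures (SE 0.14, adjusted p = 0.0412), in a fit where 1.7% of genes passed. It did not pass in primed cultures without naive 3, where 1.25% did. Mmp23 was at 12.63, 12.53 and 12.29 in naive, 12.65, 12.61 and 12.55 in non-primed and 12.65, 12.80 and 12.83 in primed libraries. All 3 primed libraries lay above the other 6, primed 1 by less than can be read from the rounded values, with a difference of 0.28 from naive in primed cultures (SE 0.10, adjusted p = 0.237). Mmp19, which cleaves basement membrane proteins, was at 12.24 to 12.70 in naive, 12.48 to 12.57 for non-primed and 12.35 to 12.74 for primed libraries, and the groups overlapped.

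**Figure D4:**
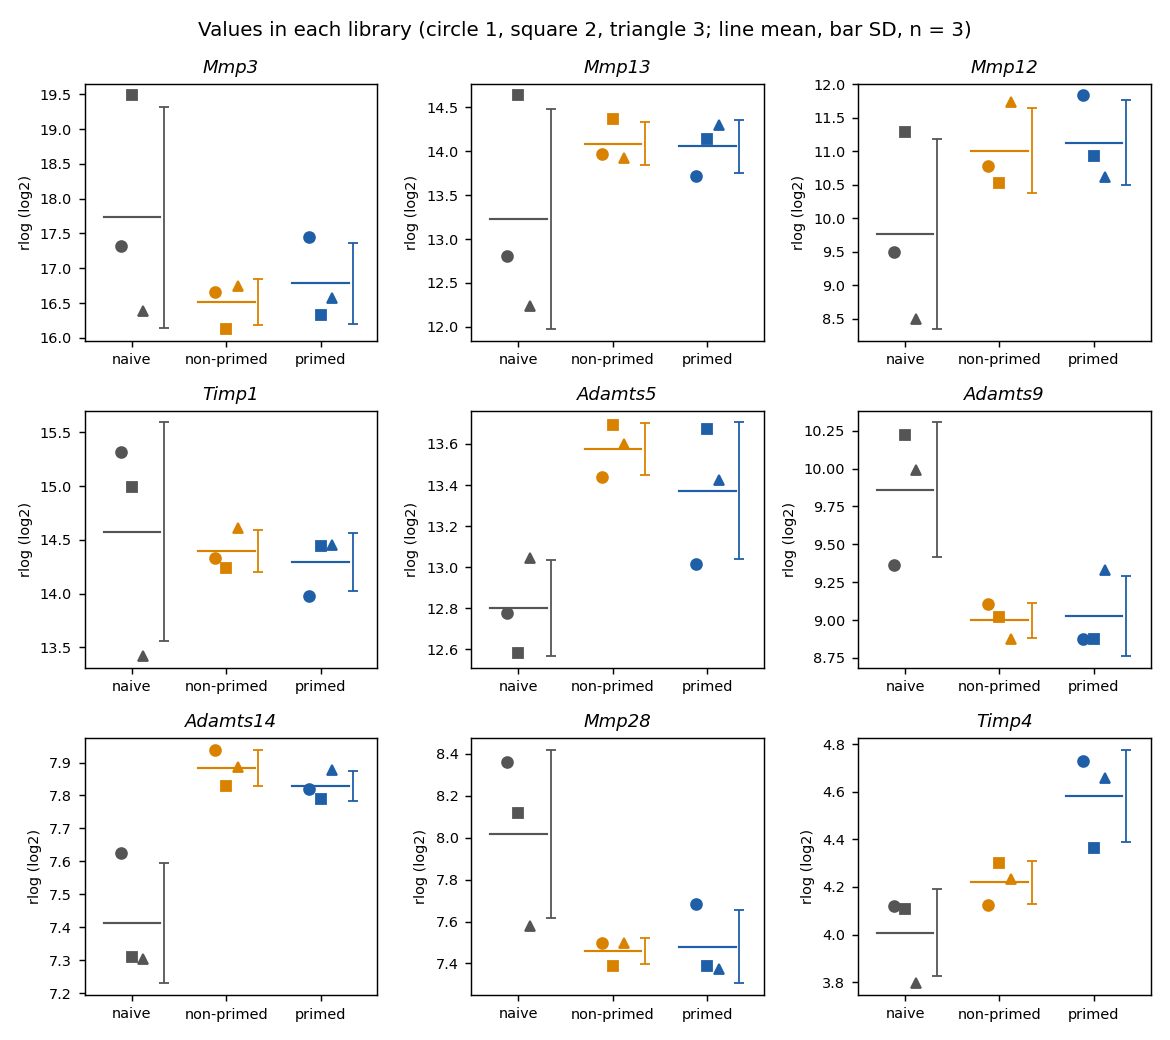
Values of 9 members (y axes, rlog on a log2 scale, not starting at 0) in each library of the 3 groups (x axes), with a line at the mean and a bar of SD, n = 3. The naive points of Mmp13 span 2.39 and the injected ones lie between them, whereas for Adamts14 the naive points span 0.32 and lie below all injected ones.

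Among the ADAMTS proteases that cleave proteoglycans, Adamts5 and Adamts9 had the smallest p-values. Adamts5, a major aggrecanase of mouse cartilage (chromosome 16, 85856173 to 85901828), was at 12.78, 12.58 and 13.05 in naive, 13.44, 13.69 and 13.60 in non-primed and 13.02, 13.67 and 13.43 in primed libraries. Every non-primed library lay above every naive one, and primed 1 lay just below naive 3. The mean was 12.80 ± 0.23 in naive, 13.58 ± 0.13 for non-primed and 13.37 ± 0.33 for primed libraries (SD, n = 3). The difference was 0.77 in non-primed (SE 0.18, limma adjusted p = 0.130) and 0.57 in primed cultures (SE 0.18, adjusted p = 0.196).

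Adamts9, another proteoglycan-cleaving member, was lower in injected cultures on average without passing the threshold. Its rlog was 9.36, 10.22 and 9.99 in naive, 9.11, 9.02 and 8.87 in non-primed and 8.87, 8.87 and 9.33 in primed libraries, with no overlap of either group with naive. The difference was -0.86 in non-primed (SE 0.22, limma adjusted p = 0.150) and -0.83 in primed cultures (SE 0.22, adjusted p = 0.152). Without naive 1, the lowest naive library, it was -1.11 in non-primed cultures (SE 0.16, adjusted p = 0.0428), where 0.531% of genes passed. Exons of Mmp28 share 12.0% of their bases with 1700020L24Rik and those of Adamts9 9.18% of their with A730049H05Rik, both on the opposite strand, with mean rlog values of 1.59 and 1.94.

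Adamts4, the other classical aggrecanase, was at 10.44, 10.35 and 10.66 in naive, 10.31, 10.38 and 10.24 in non-primed and 9.94, 10.33 and 10.24 in primed libraries. It was thus lower in every primed than in every naive library, by 0.31 on average (difference -0.31, SE 0.12, limma adjusted p = 0.251). Adamts1, the neighbour of Adamts5 at a gap of 53.1 kb, was at 14.25, 14.91 and 14.39 in naive, 14.65, 14.41 and 14.44 in non-primed and 14.32, 14.46 and 14.52 in primed libraries. Its groups overlapped and it differed from naive by -0.01 and -0.08 (SE 0.17). Adamts15, which lies 20.1 kb from Adamts8, was at 7.18 to 8.12 in naive, 7.58 to 8.32 for non-primed and 8.07 to 8.29 for primed libraries, with differences of 0.35 and 0.44 (SE 0.27, limma adjusted p = 0.587 and 0.428). Adamts8 and Adamts20 were near the filter, with naive 3 alone high at 4.85 and 5.92 and the other 8 libraries at 2.54 to 3.17 and 3.39 to 4.004.

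The procollagen N-proteinases cut the amino-terminal propeptide from fibrillar procollagens. Adamts14 was at 7.62, 7.31 and 7.31 in naive, 7.94, 7.83 and 7.89 in non-primed and 7.82, 7.79 and 7.88 in primed libraries. All 6 injected libraries lay above all 3 naive ones. The difference was 0.47 in non-primed (SE 0.12, limma adjusted p = 0.155) and 0.42 in primed cultures (SE 0.12, adjusted p = 0.175). Adamts2, the most abundant of the 3, was at 12.22, 13.00 and 12.25 in naive and between 12.57 and 13.39 in injected libraries, 0.51 and 0.55 higher on average (SE 0.26, adjusted p = 0.386 and 0.322). Adamts3 was apart in naive 2, at 6.93 against 4.56 to 5.85 elsewhere.

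Primed 1 set itself apart in a few ADAMTS genes. Adamts12, which cleaves cartilage oligomeric matrix protein, was at 8.80, 9.02 and 10.15 in naive, 10.11, 10.74 and 10.11 in non-primed and 8.43, 10.73 and 10.32 in primed libraries. Primed 1 was the lowest of the 9. Adamts16 and Adamts6 were also lowest within their injected libraries in primed 1, at 3.73 and 7.63, against 4.51 to 5.63 and 8.50 to 9.07 in the other injected libraries. Without primed 1 the median difference of the members between primed and non-primed cultures was 0.09, beside -0.02 with it, and that between primed and naive cultures was 0.31, beside 0.21. Adamts7, a relative of Adamts12, was at 8.25 to 8.64 in naive, 8.76 to 8.90 in non-primed and 8.54 to 9.13 in primed libraries, 0.39 and 0.38 higher on average (SE 0.16, limma adjusted p = 0.3 and 0.287). Adamts10 was at 9.90, 10.31 and 10.82 in naive, 10.19, 10.30 and 10.14 in non-primed and 9.94, 10.51 and 10.21 in primed libraries. It and Adamts17 differed from naive by -0.56 to -0.12.

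The naive range of Adamts6 was 2.80, with 7.10 in naive 1, 8.38 in naive 2 and 9.90 in naive 3. Its difference from naive was 0.31 in non-primed and -0.02 in primed cultures (SE 0.63).

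The 4 inhibitors were measured at very different levels. Timp1, an inhibitor secreted by many cells, was at 15.32, 14.99 and 13.42 in naive, 14.33, 14.24 and 14.61 in non-primed and 13.98, 14.44 and 14.45 in primed libraries. Naive 3 was lowest and all 6 injected libraries lay inside the naive range. The difference was -0.18 in non-primed and -0.29 in primed cultures (SE 0.43, limma adjusted p = 0.878 and 0.768). Timp2, which also takes part in the activation of proMMP2 by MMP14, was at 14.76, 14.63 and 14.08 in naive, 14.60, 14.54 and 14.61 in non-primed and 14.93, 14.84 and 14.70 in primed libraries. Primed libraries lay above non-primed by 0.24 (SE 0.17), as for Mmp2. Here too the SE shares the spread of the naive libraries, with an SD of 0.36 beside 0.04 in non-primed and 0.11 in primed. Timp3, the matrix-bound inhibitor that also blocks ADAMTS4 and ADAMTS5, was at 13.47 to 13.85 in naive, 13.86 to 13.98 in non-primed and 13.48 to 13.96 in primed libraries.

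Timp4 was the weakest of the 4, with a mean rlog of 4.27. It was at 4.12, 4.11 and 3.80 in naive, 4.12, 4.30 and 4.23 in non-primed and 4.73, 4.36 and 4.66 in primed libraries. The primed libraries lay above all others, while the naive and non-primed groups were apart only in the third decimal, where naive 1 and non-primed 1 both round to 4.12. The difference from naive was 0.58 in primed (SE 0.15, limma adjusted p = 0.153) and 0.21 in non-primed cultures (SE 0.15, adjusted p = 0.557), and primed lay 0.36 above non-primed (SE 0.15, adjusted p = 0.9999). Timp1, Timp3 and Timp4 each lie inside a synapsin gene, Syn1, Syn3 and Syn2, on the opposite strand. Syn3 shares 21.3% of the exon bases of Timp3 and had a mean rlog of 3.93, so the values of Timp3 are uncertain to that extent if reads were counted without strand.

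**Figure D5:**
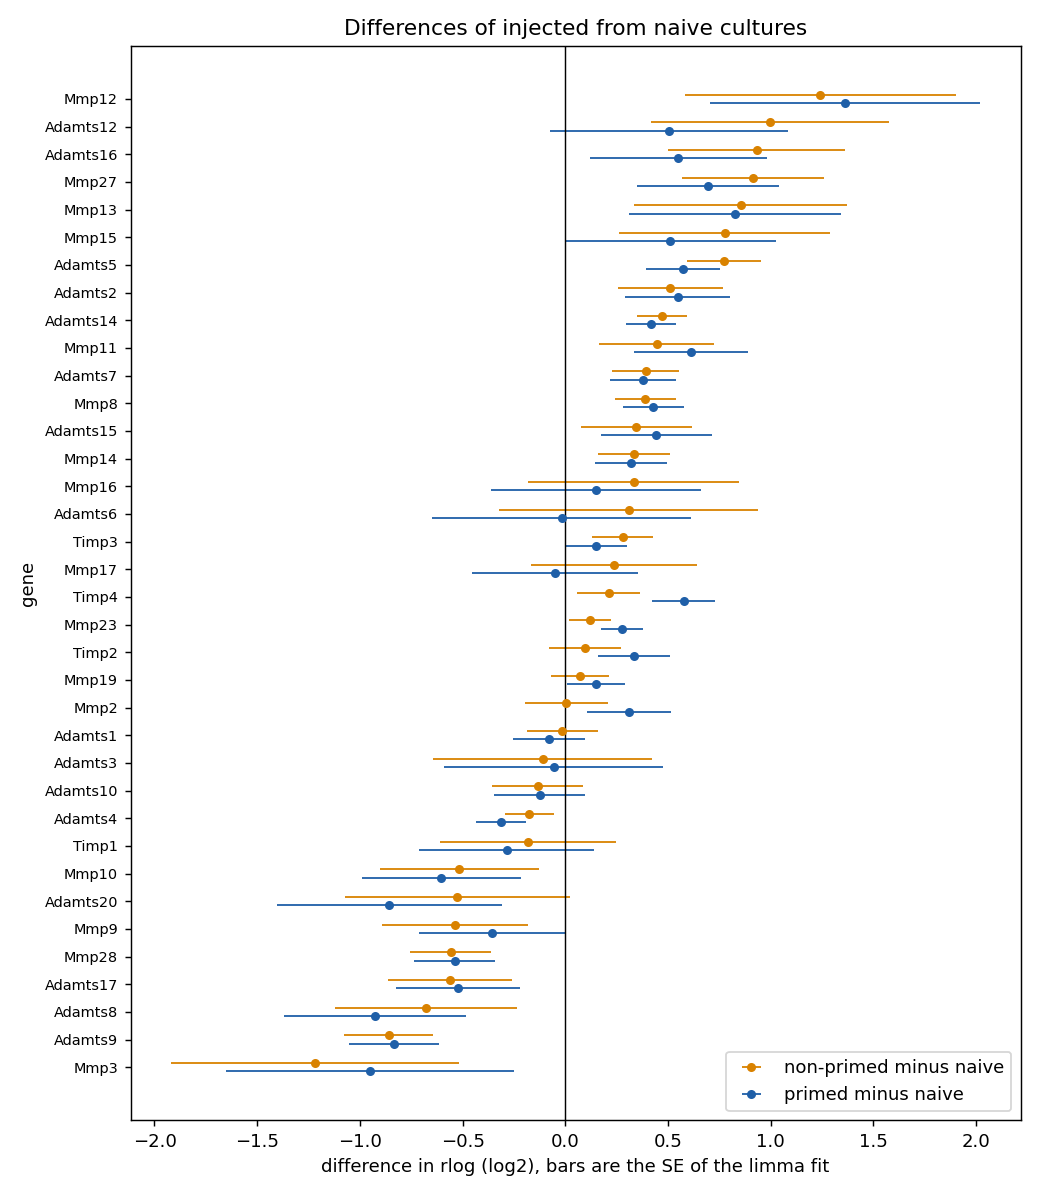
Difference from naive cultures (x axis, log2) of the 36 measured genes (y axis, in order of the non-primed difference), with orange points for non-primed and blue for primed cultures and bars of 1 SE. Mmp12 is at the top at 1.24 and Mmp3 at the bottom at -1.22, both with wide bars, while Adamts14, Adamts5 and Adamts9 have narrow ones.

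Counting only whether groups overlapped, 7 members separated non-primed from naive libraries, where 21.9% of all genes did (11.6% higher and 10.3% lower). Those higher were Adamts5, Adamts7, Adamts14, Timp3 and Timp4, and those lower were Adamts9 and Mmp28. For primed against naive the count was also 7, where 17.1% of all genes did (8.97% higher and 8.18% lower), with Adamts14, Mmp8, Mmp23 and Timp4 higher and Adamts4, Adamts8 and Adamts9 lower. Mmp8 and Adamts8 had a mean of at least 3 only through the groups where they were higher, so their separation from naive was favoured by the filter. Adamts9, Adamts14 and Timp4 separated in both, which share the naive libraries. Between primed and non-primed libraries 6 members separated, where 11.6% of all genes did (6.31% higher and 5.25% lower), with Mmp2, Mmp23, Timp2 and Timp4 higher in primed and Adamts8 and Adamts20 lower. Adamts8 had a mean below 3 in both of these groups. The smallest two-sided p of an exact permutation test at this size is 0.1.

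The other genes of the pathway were taken from 5 lists. None of their tested genes passed in any comparison. Of 21 tested genes that activate or control matrix proteases, 11 were higher in non-primed and 13 in primed than in naive cultures, with medians of 0.04 and 0.06. The list of cysteine and serine proteases also held enzymes of other classes, Ctsd, Bmp1, Tll1 and Hpse. Of its 12 tested genes, 11 and 12 were higher, with medians of 0.28 and 0.44. In this list the macrophage-rich cathepsin Ctss, named after its values were seen, was at 9.67, 11.87 and 9.08 in naive, 12.02, 12.20 and 12.33 in non-primed and 12.60, 12.89 and 11.65 in primed libraries. It was 1.98 and 2.18 higher (SE 0.63, limma adjusted p = 0.208 for non-primed), beside macrophage marker medians of 1.85 and 2.01, whose part in the list's values was not tested. Of 10 ADAM family genes, not all of them active proteases, 9 and 7 were higher. Of 21 inducing receptors and transcription factors 9 and 11 were, and of 11 substrate genes 4 and 4. Over all genes tested, 8071 and 7780 of 15623 were higher.

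The smallest p in both comparisons with naive was that of Hpse, or heparanase, which cuts heparan sulfate. It was at 7.07, 7.61 and 6.97 in naive, 8.27, 8.47 and 8.36 in non-primed and 8.47, 8.70 and 7.94 in primed libraries. The difference was 1.15 in each (SE 0.23, limma adjusted p = 0.0878 and 0.09995). Plat, the tissue plasminogen activator, was 0.75 and 0.85 higher (SE 0.20, adjusted p = 0.164 and 0.137). A2m, a trap for proteases of all classes, was at 3.80 to 4.01 in naive and between 4.58 and 7.38 in injected libraries, a difference of 2.25 in non-primed cultures (SE 0.56, adjusted p = 0.142). Bsg, a surface protein known to induce MMPs, was 0.57 higher in primed than in naive cultures (SE 0.14, adjusted p = 0.141). Bcan, the brain proteoglycan brevican, was 0.80 higher in non-primed than in naive cultures (SE 0.19, adjusted p = 0.133). Its naive mean was 3.08, near the bound of 3. Between primed and non-primed cultures, the smallest p-values were those of Adam10 at -0.20, Ctsz at 0.19 and Bsg at 0.24, each with an adjusted p of 0.9999.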

How the data were processed

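The authors deposited rlog values, on a log2 scale, for 47729 genes in 9 libraries. Libraries were made with a kit that keeps strand, per the labels' protocols. The submitters' processing notes name GRCm38, DESeq2, STAR 2.5.4a, cutadapt 2.5 and featureCounts of Subread 1.6.1. Not given in the sources used here are the gene annotation, whether reads were counted by strand, and the rlog settings. The rlog draws genes with few reads towards their mean. Library depth is unknown, and precision is that of 3 libraries a group.

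Groups came from titles, columns from descriptions, and symbols from a gene name table that matched 47224 rows. Genes that varied and had a mean of at least 3 were tested (15623) with limma 3.58.1 in R 4.3.3, in 1 fit of all 9 libraries with 6 residual degrees of freedom, a variance trend and Benjamini-Hochberg adjustment over all of them. The fit was tested on simulated independent values, with 1 spread per gene in all 9 libraries. The real groups differ in spread, which that test did not cover. Values per library are given for the 5 members with the smallest p per comparison, the 5 with the widest naive range and the highest of each role, and others as the text says. The members, roles and lists were chosen with earlier results of these data known. Klkb1 and Adamtsl6 of the lists matched no row.

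Libraries with the same number were checked for pairing by correlating their deviations from the group means. Primed with non-primed gave 0.418, 0.608 and 0.100167 for numbers 1, 2 and 3, above the bound of 0.1. They were hence taken as paired from the data only, since the design text does not tie a number to a mouse. Non-primed 3 correlated more with primed 1, at 0.275, than with primed 3, so these values do not show a pair for number 3. The main fit used no pairing. Naive libraries gave -0.16 to 0.15 with their own numbers and were not taken as paired. Naive 1 with non-primed 1 (0.15) and naive 3 with primed 3 (0.101) did pass the bound. So did naive 3 with non-primed 2 (0.18), which have different numbers. Alternatives were other filters, variance models, weights, scalings, a macrophage covariate, a replicate block and leaving out each library.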

Additional observations from a re-analysis of the deposited data

How the results depend on the processing

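Over all alternatives run, 524 of 547 differences of named members kept their direction and side of the threshold. Another 11 passed it where they had not and 12 changed sign. No member passed in the main fit, so keeping the side meant staying short of the threshold. Other filters, no variance trend and a robust prior left the differences themselves unchanged. Sizes could move within a kept direction. Mmp3 in primed cultures ranged from -1.62 to -0.07 when 1 library was left out. Named here were the members with the 5 smallest p-values per comparison. For the naive comparisons the 5 widest naive ranges and Mmp27 were added. Mmp11 and Mmp14 were not among them, so their calls are outside these counts. Against 22 genes for non-primed against naive, 0 passed with no filter on low values, 5 with no variance trend, 13 with a robust prior, 621 with array weights, 1 with the macrophage covariate and 7 in a fit of those 2 groups alone. Against 16 genes for primed against naive, the counts were 0 with no filter, 0 with no trend, 733 with array weights, 1 with the covariate and 0 with those groups alone. Array weights also gave 2109 genes for primed against non-primed, where no other setting gave any. With those weights 3, 4 and 3 members passed in the 3 comparisons. They were Mmp14, Mmp28 and Adamts5 in both naive comparisons, Mmp11 also for primed, and Mmp11, Mmp23 and Timp4 for primed against non-primed. In the F test with those weights 7 members passed. The share over all genes is not given here for the F test of any alternative, so its counts of members cannot be weighed. Leaving out 1 library gave 0 to 355 genes and 0 to 2 members for non-primed against naive, 0 to 356 genes and 0 to 1 member for primed against naive, and 0 to 1 member in the F test, the highest without naive replicate 2. The replicate block gave 51 genes in place of 16 for primed against naive and 17 in place of 22 for non-primed, and changed no call of a member. A block on the primed and non-primed libraries alone, chosen after seeing the data, called 0 genes.

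With the macrophage covariate, the difference from naive in non-primed and primed cultures changed sign for Mmp12 (-0.14 and -0.16), Mmp13 (-0.45 and -0.61) and Adamts20 (0.41 and 0.17), and for Adamts6 in primed (0.079). Of the naive libraries, only naive 2 reached the injected range of that covariate. Array weights gave 0.99 for Adamts6 in primed. Leaving out 1 library, Adamts6 ranged from -0.37 to 1.03 in non-primed and from -0.70 to 0.70 in primed, and Adamts20 from -1.01 to 0.25 in non-primed cultures. The cause was not tested. Without naive 3, Adamts8 lay below the filter. Without counts, no floor or interval from depth could be given.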
